A study of Homo sapiens with 9 samples.

Results

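The enzymes described here are the families that oxidize and conjugate drugs, hormones and endogenous metabolites in liver cells. They were chosen by name, as every gene whose symbol begins with CYP, UGT, SULT, ALDH, ADH or AKR and a digit, or with GST, a class letter (A, K, M, O, P, T or Z) and a digit. CYP51A1, a sterol synthesis enzyme, was left out. Of 9221 genes with a value in either deposited table, 41 met this rule. All 41 had a value in the PF8503 table, which held 9157 transcripts, and 38 had one in the PF846 table, which held 8839. CYP4V2, SULT1E1 and UGT2B4 had a value with PF8503 only. By family there were 12 ALDH, 10 GST, 9 CYP, 4 SULT, 2 UGT, 2 ADH and 2 AKR enzymes.

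The data are ribosome profiling, which sequences the mRNA fragments that ribosomes shield from nuclease. Huh-7, an established line from a human hepatocellular carcinoma, was exposed for 1 hr to 1.5 μM PF8503 (PF-06378503), to 1.5 μM PF846 (PF-06446846) or to the vehicle, 0.5% DMSO, with 3 libraries in each condition. PF846 and PF8503 are related small molecules that bind in the exit tunnel of the ribosome and halt the synthesis of a limited set of proteins, so the comparison asks how much footprint signal each enzyme kept after exposure. The methods describe the libraries of a condition as biological triplicates, and no sequencing lane held libraries of more than 1 condition, so an effect of lane cannot be told apart from that of a compound.

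Each table gives the authors' mean of a condition over its libraries, in normalized counts, that is, read counts divided by a size factor for each library. Replicate numbers in the study's supplement and in the labels do not match, which leaves it uncertain which libraries each mean was taken over. No value of a single library is in the tables, so no replicate error, depth per library or test could be computed here. The authors' own test columns were not used, and every ratio below is a description of pooled means. A 1-hr exposure is short, and the footprint signal of a gene depends both on its mRNA and on the ribosomes per mRNA, which cannot be told apart here. The ratio was taken as log2 of the compound mean over the vehicle mean, and a ratio past 1.2-fold (0.26 on the log2 scale) in either direction was counted. Both tables share the vehicle libraries, but each table has its own scale: where the same codons were counted, the vehicle mean was 1.09 times higher in the PF8503 table. Error in a shared vehicle mean moves the ratios with both compounds the same way. The same direction with both compounds is therefore not a replication.

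In the liver, oxidation and conjugation follow each other. Microsomal cytochromes P450 (CYP) are held on the cytosolic face of the endoplasmic reticulum (ER) by a hydrophobic N-terminus and add oxygen to their substrates with electrons from POR, while alcohol and aldehyde dehydrogenases (ADH, ALDH) and aldo-keto reductases (AKR) convert alcohols, aldehydes and ketones. UDP-glucuronosyltransferases (UGT) in the ER, and sulfotransferases (SULT) and most glutathione S-transferases (GST) in the cytosol, then attach glucuronic acid, sulfate or glutathione, so that the products can be exported. Microsomal enzymes with a hydrophobic N-terminus are made by ribosomes at the ER membrane, and the soluble ones by free ribosomes.

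By this knowledge 10 enzymes were taken as ER-anchored (8 CYP enzymes, UGT2B4 and ALDH3A2), 19 as cytosolic and 8 as mitochondrial. The other 4 (AKR7A2, ALDH16A1, ALDH3B1 and UGT8) were assigned to no class, UGT8 because it makes galactosylceramide although it is an ER enzyme. The coding sequences show the difference between the classes. Below are the 10 most hydrophobic consecutive codons within the first 50 codons of 5 microsomal P450s that mark the extremes of the results and of 3 soluble enzymes, from the canonical transcripts of GENCODE version 44 on GRCh38, read 5′ to 3′ on the coding strand. Capitals mark codons for residues with a positive Kyte-Doolittle value, a scale on which hydrophobic residues are positive.
CYP39A1: GTGATTATAATCCTGggtTGCCTTGCTCTG
CYP20A1: TTCTTGCTGGCGTTGGTGggaGCCGTGCTC
CYP2J2: CTCCTACTGggcactGTCGCCTTTCTGCTC
CYP1A1: GTCATCTTCTGTCTGGTATTCtggGTAATC
CYP4F12: CTACTCCTGCTGCTGGTTGTGggctcctgg
ALDH8A1: ATGGCTggaacaaacGCACTTTTGATGCTG
ALDH1A1: TTAcctGTCCTACTCaccgatTTGaagATT
GSTP1: TGCGCGGCCCTGcgcATGCTGCTGGCAgat
The CYP39A1 stretch lies at chr6:46652532-46652561 on the minus strand, in coding exon 1, and covers codons 8 to 17. That of CYP20A1 is at chr2:203239093-203239122 on the plus strand (exon 1, codons 11 to 20), that of CYP2J2 at chr1:59926657-59926686 on the minus strand (exon 1, codons 21 to 30), that of CYP1A1 at chr15:74723020-74723049 on the minus strand (exon 2, codons 17 to 26) and that of CYP4F12 at chr19:15673587-15673616 on the plus strand (exon 2, codons 20 to 29). Among the soluble enzymes, ALDH8A1 has its stretch at chr6:134950024-134950053 on the minus strand (exon 1, codons 1 to 10), ALDH1A1 at chr9:72952947-72952976 on the minus strand (exon 1, codons 9 to 18) and GSTP1 at chr11:67584469-67584498 on the plus strand (exon 3, codons 15 to 24). In CYP39A1, CYP20A1 and CYP1A1, 9 of the 10 codons encode a residue with a positive value, in CYP2J2 8 and in CYP4F12 7. The mean value over the stretch was between 2.53 (CYP4F12) and 3.30 (CYP39A1) in these P450s, against 1.42 in ALDH8A1, 1.42 in ALDH1A1 and 1.32 in GSTP1.

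A window of 19 residues with a mean Kyte-Doolittle value of at least 1.6, a length and hydrophobicity typical of a membrane anchor, was present in the first 50 residues of 8 of 10 ER-anchored enzymes. It was present in 0 of 19 cytosolic and 0 of 8 mitochondrial enzymes, and in 11.5% of the 8696 transcripts of the tables whose symbol matched the annotation. All 8 microsomal P450s had it, and CYP2J2, at 1.61, lay just past the limit. The exceptions among the ER-anchored enzymes were UGT2B4, at 1.22, and ALDH3A2, fatty aldehyde dehydrogenase, at -0.03. ALDH3A2 is held in the membrane by its C-terminal end, and the highest window of its last 50 residues reached 2.45. The highest window in the last 50 residues of UGT2B4 reached 2.57. UGT8 was the unassigned enzyme that passed, at 2.03.

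The level of each enzyme in vehicle-treated cells is given per counted codon, on the scale of the PF8503 table, so that long and short enzymes can be compared. ALDH1A1, which oxidizes retinaldehyde and other aldehydes, was highest at 125 normalized counts per codon, above 99.8% of the 8696 transcripts. GSTP1, a glutathione S-transferase common in tumour cells, followed with 83.2. GSTO1, an omega class transferase, was at 24 and ADH5, the formaldehyde-oxidizing class III alcohol dehydrogenase, at 13.3. The next in order were GSTK1 (8.26), a kappa class transferase of mitochondria and peroxisomes, and 3 largely mitochondrial aldehyde dehydrogenases: ALDH18A1 (5.26), which makes the precursor of proline, ALDH7A1 (4.35), of lysine breakdown, and ALDH2 (4.30), which clears acetaldehyde. CYP1A1, the aryl hydrocarbon-inducible P450, was the highest microsomal enzyme at 3.36 and AKR1A1, aldehyde reductase, was at 3.32. The spread between libraries is unknown, so close neighbours such as ALDH7A1 and ALDH2, or CYP1A1 and AKR1A1, cannot be ordered.

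**Figure D1:**
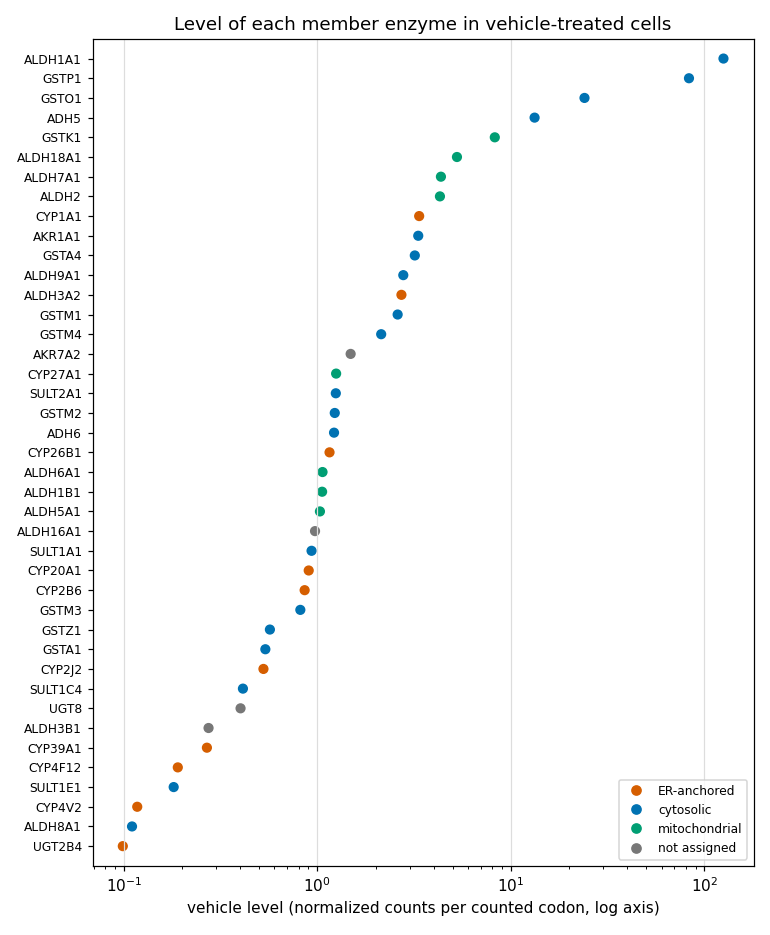
Vehicle level of each of the 41 enzymes in normalized counts per counted codon, on a log axis, 1 point per enzyme (the authors' mean for vehicle, no error available), coloured by location. ALDH1A1 (125) and GSTP1 (83.2) stand above the rest, and UGT2B4 (0.099), ALDH8A1 (0.11) and CYP4V2 (0.12) are lowest.

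ALDH1A1 alone held 54.4% of the summed vehicle signal of the 41 enzymes and GSTP1 14.3%. All 41 together held 1.06% of the vehicle signal in the PF8503 table. The plot of vehicle levels shows the ER-anchored enzymes in the middle and lower part of the order: apart from CYP1A1 and ALDH3A2 (2.72), they ranged from 1.16 (CYP26B1, which breaks down retinoic acid) to 0.099 (UGT2B4). CYP2B6, an oxidizer of bupropion and other drugs, was at 0.86, CYP20A1, a P450 without a known substrate, at 0.90 and CYP2J2, an arachidonic acid epoxygenase, at 0.53. CYP39A1, an oxysterol hydroxylase of bile acid synthesis, was at 0.27, CYP4F12, a fatty acid hydroxylase, at 0.19 and CYP4V2, also a fatty acid hydroxylase, at 0.12. Among the sulfotransferases SULT2A1, which sulfates DHEA and bile acids, was at 1.25, SULT1A1, the phenol sulfotransferase, at 0.93, SULT1C4 at 0.41 and SULT1E1, the estrogen sulfotransferase, at 0.18. Of 35 members of these families that are abundant in adult liver or widely used to describe its drug metabolism, 10 had a value: CYP2B6, CYP27A1, UGT2B4, SULT1A1, SULT2A1, SULT1E1, GSTA1, GSTM1, ALDH1A1 and ALDH2. The authors kept transcripts with more than 30 counts, so a value below that limit would not be listed. They also kept only reads with a single position, so a close relative of another gene could lack a value for that reason. Of 68 genes on a preset list of close relatives, 9 had a value with PF8503. A missing value is therefore not shown to be a missing enzyme.

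Few of the enzymes differed from vehicle by more than the fold limit with either compound. With PF8503, 2 of 41 were past 1.2-fold, ALDH8A1 higher and CYP39A1 lower, where 7.05% of all 9157 transcripts were past it, 3.22% higher and 3.83% lower. With PF846, 2 of 38 were past it, GSTA1 and ALDH8A1, both higher, where 3.33% of all 8839 transcripts were, 1.43% higher and 1.9% lower. Counts this small are near what the share of all transcripts gives over as many genes. At a limit of 1.1-fold, 14 of 41 were past it with PF8503 and 7 of 38 with PF846, against 25.6% and 15.7% of all transcripts. No enzyme was past 1.5-fold with either compound, a limit that 0.874% of transcripts passed with PF8503 and 0.339% with PF846. The median log2 ratio of the enzymes was 0.01 with each compound, against 0.01 for all transcripts with PF8503 and 0.00086 with PF846. The summed share of the enzymes in the table's signal was 1.08% with PF8503 and 1.07% with PF846, against 1.06% with vehicle in both tables.

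**Figure D2:**
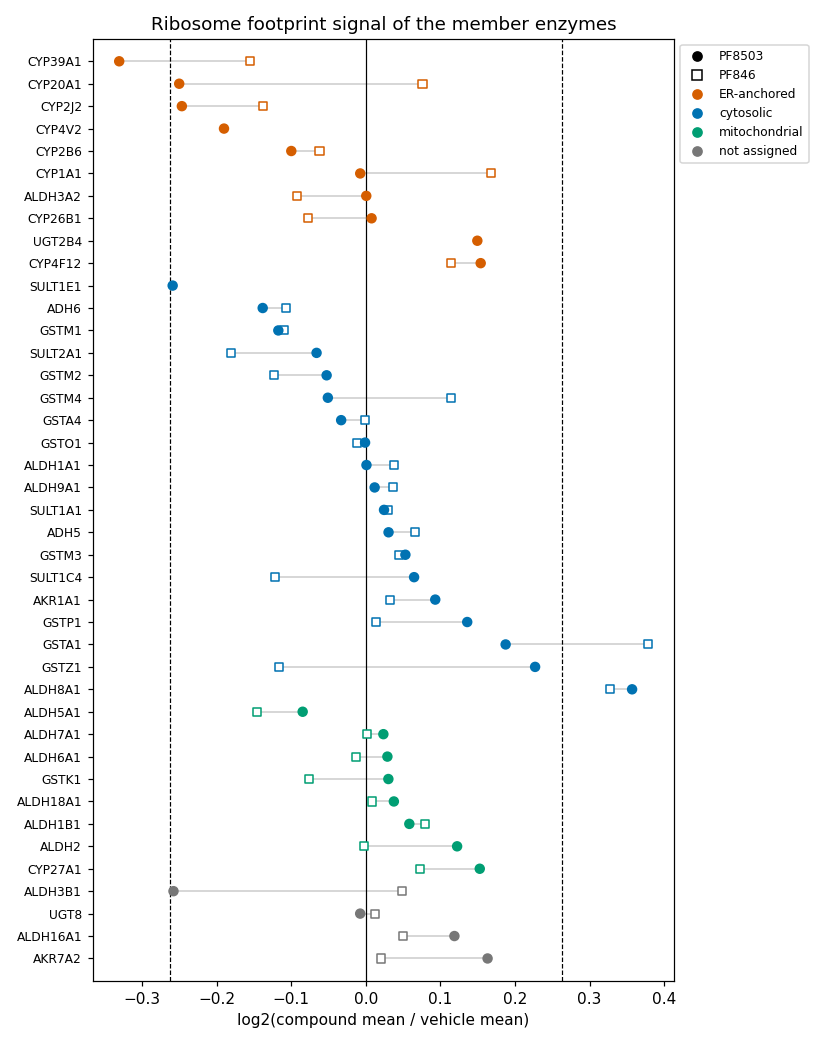
Log2 ratio of the compound mean over the vehicle mean for each enzyme, with PF8503 (filled circles) and PF846 (open squares), grouped and coloured by location, with dashed lines at 1.2-fold. CYP39A1 (-0.33) is beyond the lower line with PF8503, ALDH8A1 (0.36 and 0.33) is beyond the upper line with both compounds and GSTA1 (0.38) with PF846, and the other points lie between the lines.

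Among the ER-anchored enzymes, the microsomal P450s were mostly lower with PF8503. CYP39A1 had 121 normalized counts with vehicle and 96.2 with PF8503, a log2 ratio of -0.33, and 2.45% of all transcripts had a lower ratio. CYP20A1 had 399.9 and 336 (-0.25), and CYP2J2 254 and 214 (-0.25), both just inside the fold limit. The values of these 3 enzymes, and CYP4V2 with 59.4 and 52.1 (-0.19), were the lowest of the class. CYP2B6 was closer to vehicle, with 406 and 379 (-0.10). CYP1A1 (1656 and 1647), CYP26B1 (570.1 and 573) and ALDH3A2 (1267 and 1268) were level within 0.01 on the log2 scale. CYP4F12 (96.0 and 107, a log2 ratio of 0.15) and UGT2B4 (50.3 and 55.8, 0.15), which glucuronidates bile acids, were higher. Of the 8 microsomal P450s, 6 had a ratio below 0 with PF8503, counting CYP1A1 at -0.0075, with a median of -0.14. Of all transcripts 45.3% were below 0.

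With PF846, CYP1A1 and not CYP4F12 had the highest ratio of these enzymes. CYP1A1 had 1516 normalized counts with vehicle and 1702 with PF846, a log2 ratio of 0.17. CYP20A1 was slightly higher than vehicle, with 366 and 386 (0.08), and CYP4F12 had 87.9 and 95.1 (0.11). CYP2J2, with 233 and 212 (-0.14), and CYP39A1, with 103 and 92.5 (-0.15), were lower, as they were with PF8503 against the same vehicle libraries. CYP2B6 (-0.06), CYP26B1 (-0.08) and ALDH3A2 (-0.09) were lower by less than 0.1 on the log2 scale. Of the 7 microsomal P450s with a PF846 value, 4 had a ratio below 0, with a median of -0.06. For CYP39A1, the vehicle reads counted in the PF846 table were 92.9% of those in the PF8503 table, once scaled, so the tables counted different regions of that coding sequence.

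The cytosolic enzymes were spread around 0 with both compounds. ALDH8A1, a dehydrogenase of tryptophan breakdown, had 51.6 normalized counts with vehicle and 66.1 with PF8503 (a log2 ratio of 0.36), and 47.3 and 59.3 in the PF846 table (0.33). Both ratios rest on the same vehicle libraries, and its vehicle level per codon was the second lowest of the 41. Transcripts with a mean under 100 normalized counts, as ALDH8A1 has in both tables, were past 1.2-fold in 20.4% of cases with PF8503 and in 12.7% with PF846. At a mean of 100 to 500, which holds CYP39A1 with PF8503 (109) and GSTA1 with PF846 (115), the shares were 7.42% and 3.15%. In transcripts with a mean of 500 and over they were 3.04% and 1.17%. The plot of ratios against mean signal shows this widening at low signal for all transcripts, and the enzymes lie within it.

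**Figure D3:**
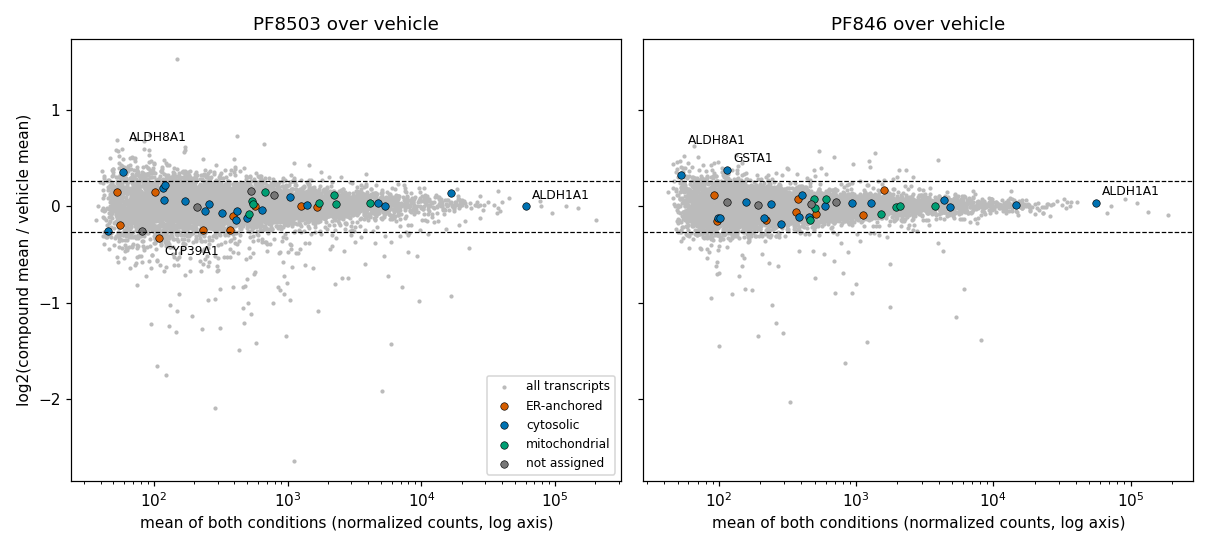
Log2 ratio of compound over vehicle against the mean of both conditions in normalized counts (log axis), with PF8503 on the left and PF846 on the right: grey points are all transcripts, coloured points the enzymes by location, dashed lines 1.2-fold. The enzymes past a line, ALDH8A1, CYP39A1 and GSTA1, lie at the left, where the cloud of all transcripts is widest, and ALDH1A1 sits close to 0 at the right.

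The most abundant soluble enzymes were close to vehicle. ALDH1A1 had 60424 normalized counts with vehicle and 60461 with PF8503 (a log2 ratio of 0.00090), and 55308 and 56794 in the PF846 table (0.04). GSTP1 had 15887 and 17456 with PF8503 (0.14), but 14541 and 14675 with PF846 (0.01). GSTO1 stayed within 0.02 of 0 on the log2 scale in both tables, with 5328 and 5325, and 4877 and 4839. ADH5 had log2 ratios of 0.03 and 0.07, AKR1A1 0.09 and 0.03, and ALDH9A1, a betaine aldehyde dehydrogenase, 0.01 and 0.04, in each case with PF8503 first and PF846 second. ADH6, an alcohol dehydrogenase of the liver, was lower with both (-0.14 and -0.11).

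Among the glutathione S-transferases, GSTA1, the alpha class enzyme of hepatocytes, had 109 normalized counts with vehicle and 125 with PF8503 (a log2 ratio of 0.19), and 100.1 and 130.1 in the PF846 table (0.38), above 99.6% of transcripts. GSTZ1, which isomerizes maleylacetoacetate in tyrosine breakdown, had 112 and 131 with PF8503 (0.23), but 103 and 94.6 with PF846 (-0.12). GSTA4, which conjugates 4-hydroxynonenal, was within 0.04 of 0 on the log2 scale with both. The mu class enzymes, which conjugate a wide range of electrophiles, had log2 ratios with PF8503 and PF846 of -0.12 and -0.11 for GSTM1, -0.05 and -0.12 for GSTM2, 0.05 and 0.05 for GSTM3 and -0.05 and 0.11 for GSTM4. None of these 4 was past the fold limit, and the directions of the close relatives GSTM1 and GSTM4 were opposite with PF846.

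The mu class also shows what limits such values. The stretch below, codons 12 to 21 of GSTM1, GSTM2 and GSTM4 and codons 16 to 25 of GSTM3, is the length of a ribosome footprint and joins 2 exons, and the capitals mark hydrophobic residues as before.
GSTM1: gggCTGGCCcacGCCATCcgcCTGCTCCTG
GSTM4: gggCTGGCCcacGCCATCcgcCTGCTCCTG
GSTM3: gggCTGGCGcacGCCATCcgcCTGCTCCTG
GSTM2: gggCTGGCCcattccATCcgcCTGCTCCTG
The ends of the stretches, with an intron between them, are at chr1:109687907-109688196 for GSTM1, chr1:109656423-109656738 for GSTM4 and chr1:109668149-109668451 for GSTM2, all on the plus strand, and at chr1:109739882-109740242 on the minus strand for GSTM3. GSTM4 differs from GSTM1 at 0 of these 30 bases, GSTM3 at 1 and GSTM2 at 2. The authors kept reads with a single position, and a footprint from this stretch of GSTM1 also matches GSTM4. Of all 30-base stretches of the GSTM1 coding sequence, 53.8% were also found in a protein-coding transcript of another named gene. The share was 43.5% for GSTM4, 23.7% for GSTM2, 57.0% for GSTA1, shared mostly with GSTA2, and 57.4% for SULT1A1, shared mostly with SULT1A2. It was 14.9% for AKR7A2, 13.1% for UGT2B4, 11.5% for ALDH3B1, 6.68% for CYP4F12, 2.19% for CYP1A1, 0.144% for GSTO1 and 0 for the other 30 enzymes. With a relative in the authors' reference, reads from a shared stretch have more than 1 position and were dropped. Which relatives that reference held was not checked. Where they were held, GSTA1, GSTM1, GSTM2, GSTM4 and SULT1A1 were counted on fewer codons, and their levels per codon are too low. The values of these enzymes are therefore uncertain, and the effect of dropped reads on the GSTA1 ratio with PF846 was not tested.

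The sulfotransferases gave no common direction. With PF8503 the vehicle and compound means were 331 and 317 for SULT2A1 (a log2 ratio of -0.07), 258 and 262 for SULT1A1 (0.02), 117 and 122 for SULT1C4 (0.06), and 49.8 and 41.6 for SULT1E1 (-0.26), which is just inside the fold limit at a low mean. With PF846 they were 303 and 268 for SULT2A1 (-0.18), the lowest ratio of any enzyme in that table, 236 and 241 for SULT1A1 (0.03) and 107 and 98.2 for SULT1C4 (-0.12).

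The mitochondrial enzymes had the narrowest range with PF8503, from -0.08 to 0.15 on the log2 scale, and 7 of 8 were above 0. Of all 9157 transcripts, 5010 were above 0. The class is small and its lowest vehicle mean was 527, at a signal where ratios of all transcripts spread less. The narrow range is therefore not shown to be a trait of these enzymes. CYP27A1, the sterol 27-hydroxylase and the only mitochondrial P450 of the set, was highest, with 640.4 normalized counts with vehicle and 712 with PF8503 (a log2 ratio of 0.15), and ALDH2 had 2141 and 2331 (0.12). ALDH5A1, succinate semialdehyde dehydrogenase, was the exception at -0.08, and was also lowest with PF846 (487 and 440.3, -0.15). The other mitochondrial enzymes, ALDH18A1, ALDH7A1, ALDH6A1 of valine breakdown, ALDH1B1 and GSTK1, lay between 0.02 and 0.06 with PF8503. With PF846, 4 of 8 were above 0 and the range was -0.15 to 0.08, with ALDH1B1, an acetaldehyde dehydrogenase, highest and ALDH2 at -0.0029.

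Of the unassigned enzymes, AKR7A2, an aflatoxin aldehyde reductase, had 505 normalized counts with vehicle and 566 with PF8503 (0.16 on the log2 scale), and a log2 ratio of 0.02 with PF846. ALDH16A1 had log2 ratios of 0.12 and 0.05, and UGT8 of -0.01 and 0.01. ALDH3B1, a lipid-anchored aldehyde dehydrogenase, had 88.4 and 73.9 with PF8503 (-0.26) and 113 and 117 with PF846 (0.05). In the PF8503 table its vehicle reads were 71.8% of those in the PF846 table, once scaled, so its ratios come from different regions of the coding sequence. A shorter region begins past the codon where compound and vehicle differed most, a point picked from these same data. A ratio can be lower for that reason, here with PF8503 and for CYP39A1 with PF846, which was not tested. For 36 of the 38 enzymes in both tables, ALDH3B1 and CYP39A1 being the exceptions, the same region was counted.

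The comparison of ER-anchored with cytosolic enzymes gave medians on either side of 0. With PF8503 the median log2 ratio was -0.05 over 10 ER-anchored and 0.01 over 19 cytosolic enzymes, a difference of -0.07. With PF846 it was -0.07 over 8 and 0.02 over 18, a difference of -0.09. These differences are small beside the spread within each class: ER-anchored ratios ran from -0.33 to 0.15 with PF8503 and from -0.15 to 0.17 with PF846, and cytosolic ones from -0.26 to 0.36 and from -0.18 to 0.38. The classes overlapped with both compounds, and 6 of 10 ER-anchored against 8 of 19 cytosolic enzymes were below 0 with PF8503, and 5 of 8 against 8 of 18 with PF846. With each table centred on its median the PF8503 counts were 8 of 10 and 10 of 19, and those with PF846 did not move. With PF8503 the difference narrowed to -0.02 without the enzymes counted over different regions, that is, without CYP39A1. Its PF8503 ratio came from the longer region, so this took out the lowest ratio of the class and not a shorter region. CYP4V2, SULT1E1 and UGT2B4, with no PF846 value to compare regions by, stayed in. The difference was -0.21 without the 9 enzymes on a preset list of those with a close relative. That takes CYP1A1, CYP4F12 and UGT2B4, all level or higher, out of the ER-anchored class although they share only 2.19% to 13.1% of their stretches. Without the 5 enzymes that share at least 20% of their stretches, all cytosolic, it was -0.07.

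For the ER-anchored enzymes, summed signal was lower with PF8503, as the median was, but not with PF846. The summed signal of the ER-anchored enzymes had a log2 ratio of -0.05 with PF8503 and 0.02 with PF846, where CYP1A1 contributed 33.9% and 34.8% of the vehicle sum. Without CYP1A1 the log2 ratios of the sums were -0.07 and -0.06, so the sign with PF846 rested on that enzyme. The cytosolic sum, dominated by ALDH1A1 and GSTP1, had log2 ratios of 0.03 and 0.03.

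The hydrophobicity of the N-terminus, which the choice of enzymes did not use, had little relation to the ratio. Across the 41 enzymes Pearson's r between the highest 19-residue value and the log2 ratio was -0.25 with PF8503 (Spearman's rho -0.11). Across the 38 with PF846, r was -0.06 and rho 0.01. Enzymes are not independent replicates and all points share the same libraries, so these are descriptions. CYP39A1, with the most hydrophobic N-terminus (2.76), had the lowest ratio with PF8503, and the next, CYP2B6 (2.60) and CYP20A1 (2.59), were lower than vehicle too. CYP26B1 (2.42) and CYP1A1 (2.15) were level, CYP4F12 (2.04) was higher and UGT8 (2.03) was level. CYP4V2 (1.88) and CYP2J2 (1.61), the least hydrophobic of the microsomal P450s, were lower again, at -0.19 and -0.25, so the order was not graded. Of all transcripts, the 986 with a hydrophobic N-terminus had a median log2 ratio of 0.04 with PF8503 and the other 7653 had 0.01. With PF846 the medians were -0.01 over 955 and 0.0021 over 7386. With PF8503 the median of all transcripts with a hydrophobic N-terminus and that of the ER-anchored enzymes (-0.05) thus had opposite signs.

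**Figure D4:**
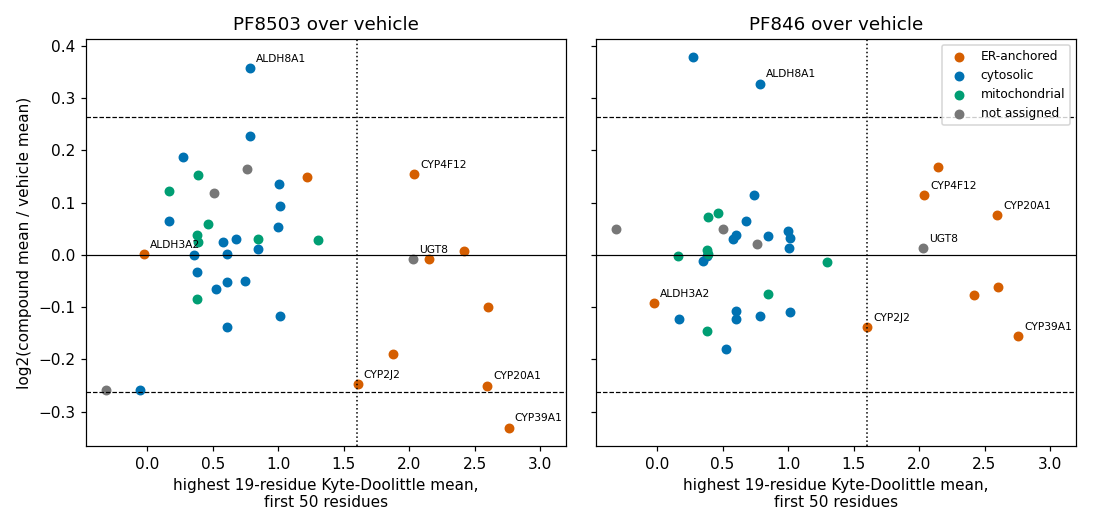
Log2 ratio of compound over vehicle against the highest mean Kyte-Doolittle value of a 19-residue window in the first 50 residues, 1 point per enzyme coloured by location, with PF8503 on the left and PF846 on the right; the dotted line marks a value of 1.6 and dashed lines 1.2-fold. To the right of the dotted line, ratios with PF8503 run from -0.33 (CYP39A1) to 0.15 (CYP4F12).

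The compounds were used at the same dose and time, so their ratios can be set side by side. They share the vehicle libraries, which cancel in the difference of the log2 ratios where the same region was counted. With 38 enzymes compared, 3 differed by more than 1.2-fold between the compounds, where 5.83% of 8775 transcripts did. The difference, PF8503 minus PF846 on the log2 scale, was 0.34 for GSTZ1, -0.33 for CYP20A1 and -0.31 for ALDH3B1, the last with the different regions described above. GSTZ1 was thus higher with PF8503 and lower with PF846 than with vehicle, and CYP20A1 the reverse. The median difference over the 38 enzymes was 0.02, against 0.01 over all transcripts. No interval of these differences can be given, so enzymes inside the limit are not shown to respond alike.

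Beyond these, SULT1C4 (0.19), AKR7A2 (0.14), ALDH2 (0.13), GSTP1 (0.12) and SULT2A1 (0.11) had the largest positive differences among enzymes with a mean of at least 100 normalized counts in both tables. GSTA1 (-0.19), CYP1A1 (-0.17), GSTM4 (-0.16) and CYP2J2 (-0.11) had the largest negative ones after CYP20A1. By class the differences had medians of -0.07 over 8 ER-anchored, 0.0017 over 18 cytosolic and 0.05 over 8 mitochondrial enzymes, of which 7 were positive. Of all 8775 transcripts, 4728 had a positive difference. Among the 7 microsomal P450s the median was -0.11, and CYP26B1 (0.09) and CYP4F12 (0.04) were the positive ones.

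The proteins that work with these enzymes were close to vehicle with few exceptions. All 5 electron transfer partners were measured and none was past 1.2-fold: POR, which hands electrons to every microsomal P450, had log2 ratios of 0.01 with PF8503 and 0.02 with PF846, CYB5A 0.11 and -0.08, CYB5B 0.01 and 0.01, and CYB5R3 0.06 and 0.01. Of 14 genes that supply cofactors, such as UGDH for UDP-glucuronic acid (-0.02 and -0.02), UGP2 (-0.04 and 0.03), SLC35D1 (-0.01 and -0.04) and PAPSS1 for activated sulfate (-0.04 and 0.04), 0 were past it with either compound. The same held for the 12 measured enzymes of the cytosol outside the families, among them NAT1 (-0.08 and -0.04), NAT2 (-0.07 and -0.12), TPMT (-0.0005 and 0.0045) and NNMT (0.05 and 0.13). Of all transcripts 7.05% were past 1.2-fold with PF8503 and 3.33% with PF846. Counts of 0 in sets of this size are near what those shares give.

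Other membrane-bound enzymes of the ER were lower in more cases. With PF8503, 8 of 9 measured were below 0, with a median of -0.08, and 2 were past 1.2-fold lower, as were 3.83% of all transcripts: MGST3, a microsomal glutathione transferase and peroxidase, with 1626 and 1066 normalized counts (a log2 ratio of -0.61), and FMO4, a flavin monooxygenase, with 46.4 and 38.7 (-0.26). MGST3 was counted over a shorter region in the PF8503 table, with the limit given for ALDH3B1, and had a log2 ratio of -0.20 with PF846. EPHX1, microsomal epoxide hydrolase (-0.11 and -0.04), MGST1 (-0.08 and -0.07) and MGST2 (-0.03 and -0.03) were within the limit with both. With PF846, 6 of 7 were below 0, with a median of -0.05, where 49.7% of all transcripts were below 0.

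The cells were checked against hepatocyte markers. All 12 were measured, with vehicle means from 1296 (SERPINA1) to 212970 (AFP), among them ALB (148370) and APOA1 (25632). APOA2 (-0.39) and FGA (-0.31) were past 1.2-fold lower with PF8503, where 3.83% of all transcripts were, and none was with PF846, where 1.9% were. APOA2 was counted over a shorter region in the PF8503 table, with the limit given for ALDH3B1. Of 12 markers of other cell types, 4 had a value: LYZ, CD68 and PECAM1, with vehicle means of 7769, 889 and 170.03 in the PF8503 table, and ACTA2, with 51.1 in the PF846 table. Their part in the results was not tested.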

How the data were processed

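Ribosome footprints were measured in 9 libraries of Huh-7 cells, 3 per condition. Per the methods, the authors trimmed adapters (FASTX), discarded rRNA reads, mapped the rest with Bowtie to canonical coding transcripts (GENCODE version 24, GRCh38) and kept those with a single position. They summed the reads of each coding sequence without its last 10 codons, beginning 10 codons into it or, if a stall was scored (Z score of 2 or more), 3′ of the codon where compound and vehicle differed most. The authors compared transcripts with more than 30 counts using DESeq. Each signal value the authors deposited is a condition's mean of counts divided by library size factors. Versions of the authors' tools are not given in the sources used here. The tables also hold the authors' fold changes, log2 fold changes, p-values and adjusted p-values, which were not used. There were 0 columns of other samples. Neither table has a value of a single library, so depth per library is unknown, and no model was fitted.

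The log2 ratio was computed with no pseudocount and no filter. Samples were grouped by their labels. A different region was read from a vehicle ratio between tables departing from its constant by more than 0.002 on the log2 scale. On simulated data this and the fold count were checked. Coding length (without the first and last codons left out by the authors), hydrophobicity and 30-base stretches were taken from GENCODE version 44, which is also on GRCh38. All 41 enzymes and 8696 of 9221 genes matched by symbol. Stretches shared only with unnamed genes were not counted. The genes named are every enzyme past 1.2-fold, the 5 highest and 5 lowest ratios per compound and the 5 largest differences each way at a mean of at least 100 normalized counts, the 10 highest levels per codon, and, of other lists, those past 1.2-fold and up to 4 in list order. The result of 1 gene of the other lists is not reported here. The remaining enzymes, and SERPINA1, were named after their values were seen. Members and lists were chosen with earlier results of these data known. Alternatives were fold limits of 1.1 and 1.5, a minimum mean of 100, centring, a pseudocount of 1, means in place of medians and narrower sets of enzymes. The tools were pandas 2.3.3, numpy 2.4.6, scipy 1.17.1 and matplotlib 3.10.9 in Python 3.11.15.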

Additional observations from a re-analysis of the deposited data

How the results depend on the processing

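With no replicate spread, a median that stayed within 0.05 on the log2 scale was taken as unmoved, and a count within 1.5 times. Of 75 alternative values of counts and medians, 63 were unmoved. The tolerance of 0.05 is close in size to the ER-anchored minus cytosolic difference itself (-0.07 with PF8503), so a change to -0.02 counted as unmoved. Centring cannot move a difference between classes, and the set with a value in both tables is the full PF846 set. The number unmoved is therefore no measure of how firm that difference is. Enzymes past the fold numbered 14 with PF8503 and 7 with PF846 at 1.1-fold (where 25.6% and 15.7% of all transcripts were past it) and 0 with each at 1.5-fold. With PF8503 the count of 2 became 1 at a mean of at least 100 (CYP39A1), 1 without enzymes counted over different regions (ALDH8A1) and 4 when each table was centred on its median, since SULT1E1 and ALDH3B1 then passed. With PF846 it became 1 at a mean of at least 100 (GSTA1) and 1 without the preset list of enzymes with a close relative (ALDH8A1). Without that list the ER-anchored median with PF8503 was -0.19 over 7 enzymes and its difference from the cytosolic median -0.21. Without enzymes sharing at least 20% of their 30-base stretches with another named gene, an alternative chosen after seeing the data, the difference was -0.07 with PF8503 and -0.08 with PF846. The difference between means with PF846 was -0.038. The difference stayed below 0 under every alternative tried, at its smallest -0.02 (PF8503) and -0.04 (PF846) and at its largest -0.21 and -0.10, while the cytosolic median turned sign within 0.03 of 0 when centred (PF8503, -0.00086) or over SULT and GST enzymes only (-0.00097 and -0.0064). Centring and a pseudocount of 1 moved single enzymes by at most 0.013, but with PF8503 centring turned the sign of 4 (ALDH1A1, ALDH9A1, ALDH3A2 and CYP26B1), from just above 0 to just below it. No paired analysis was possible because the tables hold no value of a single library, and for the same reason no replicate could be left out. Enzymes with under 100 normalized counts, among them ALDH8A1, CYP4V2, SULT1E1 and UGT2B4, are the least certain.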

Other observations

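Transcription factors and sensors that control these enzyme genes were measured in 12 of 14 cases, and 0 were past 1.2-fold with either compound. Of all transcripts 7.05% were past it with PF8503 and 3.33% with PF846, so 0 of 12 is near those shares. With PF8503 9 of the 12 were above 0, with a median log2 ratio of 0.09, and with PF846 6 were, with a median of 0.0067. Of all transcripts, 5010 of 9157 were above 0 with PF8503, with a median of 0.01, and 4447 of 8839 with PF846. AHR, the receptor that induces CYP1A1, had 3230 normalized counts with vehicle and 3305 with PF8503 (a log2 ratio of 0.03), and a log2 ratio of 0.04 with PF846, and its partner ARNT had 0.10 and 0.03. RXRA, the partner of several nuclear receptors, had log2 ratios of 0.13 and 0.03, and HNF4A, a regulator of hepatocyte genes, 0.11 and 0.06.

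Of 9 efflux transporters that export drugs and conjugates, 6 were measured. With PF8503 1 was past 1.2-fold, where 7.05% of all transcripts were, and with PF846 0 were, where 3.33% were. The one past it was ABCC3, an exporter of glucuronides, with 110.3 normalized counts with vehicle and 74.4 with PF8503 (a log2 ratio of -0.57), against 129.8 and 140.8 with PF846 (0.12). Its ratios come from different regions of the coding sequence, the shorter with PF8503, with the limit given for ALDH3B1. ABCC2, which exports conjugates into bile, had log2 ratios of -0.12 and -0.03, ABCC4 of -0.09 and -0.03, and ABCB1, P-glycoprotein, of -0.01 and -0.0013, with PF8503 first and PF846 second.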
